A study of Mus musculus with 6 samples.

Results

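The 7 genes listed as neighbours of Pde5a were followed in mouse striatum in which PDE5A had been overexpressed, to see whether genes beside the manipulated one moved with it. The genes were Fabp2, Usp53, Myoz2, Synpo2, Sec24d, Mettl14 and Mad2l1, chosen by symbol as protein-coding genes near Pde5a on chromosome 3 in mm10 and matched to Ensembl identifiers. They make up 7 of the 55335 gene identifiers counted. RNA-seq of the striatum, a forebrain structure that receives cortical input, was compared between 3 samples of C57 mice with the genotype label "PDE5A Overexpressing" and 3 samples of C57 mice with the genotype label "WT". The sources used here do not give the means of overexpression, what the control animals received, or the animals' age and sex. Since no label ties a sample to an animal of its own, the p-values measure the spread between samples, and part of it may be technical.

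PDE5A is a phosphodiesterase that hydrolyses cyclic GMP, the second messenger of nitric oxide signalling, and is best known as the target of sildenafil in smooth muscle. A gene can be made more active at its own place in the genome or from an introduced copy elsewhere. Genes that lie side by side can share enhancers and chromatin, and transcription that runs past a gene's end can enter the next one, so neighbours are often examined beside a manipulated gene. The 7 listed genes have unrelated products. Fabp2 is the intestinal fatty acid-binding protein, Usp53 is a member of the ubiquitin-specific protease family associated with tight junctions, Myoz2 is a calcineurin-binding protein of the muscle Z-disc, and Synpo2 is an actin-binding protein of the Z-disc and of smooth muscle. Sec24d is a cargo-binding subunit of the COPII coat, which buds vesicles from the endoplasmic reticulum. Mettl14 is the partner of Mettl3 in the methyltransferase that writes N6-methyladenosine (m6A) on RNA, and Mad2l1 encodes MAD2, which holds back anaphase in the spindle assembly checkpoint.

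By position, 6 of the 7 genes were neighbours and 1 was not. Pde5a lies on the plus strand of chromosome 3 in mm10 (GENCODE release M21), from 122728947 to 122859374. Past its end come Fabp2 (122895072 to 122899506, plus strand), 35.7 kb away, and Usp53 (122931493 to 122984510, minus strand), 72.1 kb away. Myoz2 (123006206 to 123035015, minus strand) and Synpo2 (123076519 to 123236149, minus strand) follow at 147 kb and 217 kb. Sec24d (123267455 to 123365641, plus strand) and Mettl14 (123368297 to 123386108, minus strand) lie 408 kb and 509 kb from Pde5a. Mad2l1 was placed by the same annotation on chromosome 6, from 66535390 to 66547220, against the rule by which it was listed. In the human genome MAD2L1 lies near PDE5A. In what follows Mad2l1 is a gene of another chromosome, and the 6 others are the chromosome 3 neighbours. None of the gene bodies of Usp53, Sec24d, Mettl14 and Mad2l1 overlapped another annotated gene. Fabp2 is overlapped by the antisense gene 4933405D12Rik, Myoz2 holds 1 annotated small RNA gene, and Synpo2 overlaps 4 gene models, 1 of them on the opposite strand.

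The promoters of the neighbours fell into GC-rich and AT-rich ones, and the sequences of Pde5a, of the neighbours with hardly any counts (Fabp2 and Myoz2) and of the neighbour with the most CG dinucleotides (Sec24d) are shown because they differ in this way. RefSeq's promoter table for GRCm38.p6 held 6 of the 8 genes (Pde5a and the 7 listed), and Usp53 and Mettl14 had no entry. Each sequence runs 5′ to 3′ on the gene's strand, from 250 bases before to 50 bases after RefSeq's start, with every CG dinucleotide in capitals. The windows are chr3:122728908-122729207 (plus strand) for Pde5a, chr3:122894822-122895121 (plus strand) for Fabp2, chr3:123034938-123035237 (minus strand) for Myoz2 and chr3:123267246-123267545 (plus strand) for Sec24d.
Pde5a: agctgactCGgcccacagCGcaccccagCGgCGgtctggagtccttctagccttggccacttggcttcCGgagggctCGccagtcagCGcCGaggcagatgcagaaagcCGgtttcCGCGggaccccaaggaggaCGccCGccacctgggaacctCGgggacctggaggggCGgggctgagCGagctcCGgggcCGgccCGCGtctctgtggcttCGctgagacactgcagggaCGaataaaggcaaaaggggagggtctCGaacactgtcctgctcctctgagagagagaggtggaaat
Fabp2: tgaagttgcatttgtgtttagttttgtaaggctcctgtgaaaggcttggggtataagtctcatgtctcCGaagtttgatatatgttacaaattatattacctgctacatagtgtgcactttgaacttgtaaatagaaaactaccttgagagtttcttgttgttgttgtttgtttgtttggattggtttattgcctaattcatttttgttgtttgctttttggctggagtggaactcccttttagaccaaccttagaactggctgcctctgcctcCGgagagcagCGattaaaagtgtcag
Myoz2: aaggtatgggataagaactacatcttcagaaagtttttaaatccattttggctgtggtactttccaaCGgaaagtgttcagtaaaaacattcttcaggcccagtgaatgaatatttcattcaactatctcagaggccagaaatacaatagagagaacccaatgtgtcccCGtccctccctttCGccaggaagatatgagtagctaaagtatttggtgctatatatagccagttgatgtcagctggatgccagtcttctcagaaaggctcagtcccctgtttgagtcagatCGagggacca
Sec24d: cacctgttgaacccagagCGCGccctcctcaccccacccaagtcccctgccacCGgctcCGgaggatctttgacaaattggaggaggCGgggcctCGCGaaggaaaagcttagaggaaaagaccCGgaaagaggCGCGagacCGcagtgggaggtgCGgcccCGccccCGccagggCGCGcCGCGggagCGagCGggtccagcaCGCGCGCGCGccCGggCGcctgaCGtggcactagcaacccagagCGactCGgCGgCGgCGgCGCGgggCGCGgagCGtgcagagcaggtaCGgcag
The Pde5a window held 23 CG dinucleotides at a GC content of 66.3%, and the Sec24d window 39 at 72.0%. The Fabp2 window held 3 CG dinucleotides at 38.7% GC, and the Myoz2 window 4 at 42.7%. Synpo2 and Mad2l1, not printed, held 17 each, at 57.3% and 59.0% GC. Among all 32851 promoters of the table, 31.4% held 3 or fewer CG dinucleotides and 4.45% held 39 or more, around a median of 7. The GC box GGGCGG was found on either strand in the windows of Pde5a, Synpo2, Sec24d and Mad2l1 and not in those of Fabp2 and Myoz2, and 35.7% of all promoters hold it. The exact TATA sequence TATAAA was found on either strand only in the window of Synpo2, among these 6, and 13.6% of all promoters hold it. In Synpo2 the match lies on the opposite strand, near the end of the window far from the start. The search took exact matches at any place and left out variants such as the TATATATA of the Myoz2 window. It therefore does not tell which promoters have a TATA box. Matches of GGGCGG and TATAAA cannot overlap each other, and GGGCGG contains a CG dinucleotide. Of 5129 protein-coding genes with 5 or fewer CG dinucleotides in this window, 21.3% averaged at least 1 CPM (counts per 1e6 counts of the library) over the 6 libraries, against 92.9% of 8102 genes with 15 or more. Fabp2 and Myoz2, both under 1 CPM, belonged with the first set, and Synpo2, Sec24d and Mad2l1, all above it, with the second.

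The overexpression libraries held 33013698 to 39271447 counts and the control libraries 40653784 to 42288789, so every overexpression library was shallower than every control library. CPM below are on library sizes adjusted by TMM, edgeR's trimmed mean normalization. The labelled tissue was checked by markers of medium spiny neurons, its main cell type, which were abundant in every library, with 3480 to 7153 CPM summed over 10 genes in overexpression and 4060 to 7187 CPM in control. Marker sums of other tissue were uneven. Choroid plexus markers summed to 916, 3428 and 316 CPM in overexpression replicates 1 to 3 and to 451, 328 and 319 CPM in control replicates 1 to 3. Glutamatergic cortical markers summed to 1235, 1583 and 2448 CPM in overexpression and to 1424, 916 and 1881 CPM in control. Thalamic markers summed to 296 to 367 CPM in overexpression and 341 to 424 CPM in control, markers of vascular smooth muscle cells and pericytes to 160 to 185 CPM and 154 to 197 CPM, endothelial markers to 189 to 219 CPM and 160 to 229 CPM, and markers of dividing cells to 14.1 to 16.6 CPM and 12.7 to 21.2 CPM. No gene of these marker lists was at 0 in all 6 libraries. Among the examples, Ttr of the choroid plexus had 481, 2241 and 22.5 CPM in overexpression and 48.4, 32.6 and 35.7 CPM in control. The thalamic marker Prkcd had 13.9, 12.6 and 17.3 CPM in overexpression and 31.0, 23.0 and 21.7 CPM in control, and the smooth muscle marker Acta2 had 5.85, 5.86 and 4.83 CPM in overexpression and 6.08, 7.70 and 4.70 CPM in control. In bulk tissue, fewer cells of a type and less RNA per cell cannot be told apart.

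Pde5a itself, reported first as the check of the labels, had 759.8, 699.9 and 591 CPM in overexpression replicates 1 to 3, against 3.72, 4.14 and 6.08 CPM in control replicates 1 to 3. It rose 147-fold, a log2 fold change of 7.20 with a standard error (SE) of 0.23 and a 95% interval of 6.65 to 7.75, with an adjusted p of 0.000151 in the quasi-likelihood fit of edgeR (Benjamini-Hochberg over all genes tested). Counts are summed per gene, so transcripts of the gene on chromosome 3 and of any introduced copy are not separated.

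None of the chromosome 3 neighbours that could be tested rose with Pde5a. Of these, 4 could be tested (Usp53, Synpo2, Sec24d and Mettl14), as could Mad2l1. In edgeR's quasi-likelihood test 0 of these 5 passed an adjusted p of 0.05. Of all 19809 genes tested 1 passed, 0.00505%, and that gene was Pde5a itself. At an unadjusted p under 0.05 the count was again 0 of 5, against 3.89% of all genes, and 0 of 5 were called by the DESeq2 Wald test or limma-voom, which called 0.419% and 0.0252% of all genes. The log2 fold changes lay between −0.19 and −0.07, with a median of −0.09 where all tested genes had a median of 0.0016. The sign was negative for 5 of 5, against 49.4% of all genes, and the 95% interval of each of the 5 included 0. The groups overlapped for each of the 5, where 8.93% of all genes had groups that did not overlap. The highest upper bound among the 5 intervals was 0.32, that of Synpo2, and the lower bound of the interval of Pde5a was 6.65.

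**Figure D1:**
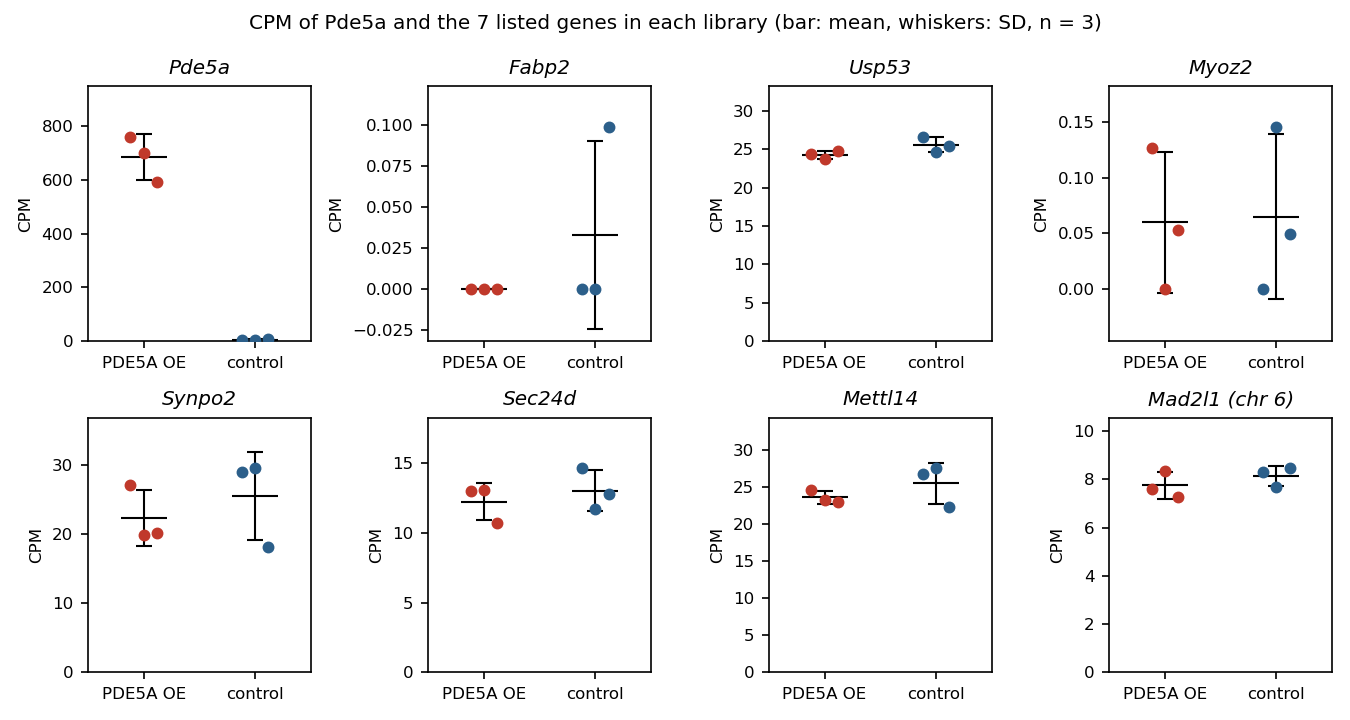
CPM of Pde5a and the 7 listed genes in each library, with the 3 overexpression libraries on the left and the 3 control libraries on the right of each panel (points, libraries; long bar, mean; whiskers, SD; each panel has its own linear scale). Pde5a separates at 591 CPM or more in overexpression and 6.08 CPM or less in control, while the groups overlap in every other panel.

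Usp53 is the nearest of the tested listed neighbours and had the narrowest interval of the 5 tested genes. It had 24.4, 23.7 and 24.7 CPM in overexpression replicates 1 to 3, against 26.6, 24.7 and 25.4 CPM in control replicates 1 to 3. Overexpression replicates 1 and 2 were below every control library, and the groups overlapped through overexpression replicate 3 and control replicate 2. The means were 24.3 ± 0.503 CPM in overexpression and 25.6 ± 0.971 CPM in control (SD, n = 3 each), a log2 fold change of −0.07 (SE 0.07) with a 95% interval of −0.24 to 0.10. In fold terms the interval ran from 0.844 to 1.07.

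Synpo2 varied most among the tested neighbours. It had 27.1, 19.9 and 20.2 CPM in overexpression, against 29.0, 29.5 and 18.1 CPM in control. Control replicate 3 was the lowest library and control replicate 2 the highest, so the overexpression values fell within the control range. The means were 22.4 ± 4.06 CPM in overexpression and 25.6 ± 6.43 CPM in control (SD, n = 3 each), with a log2 fold change of −0.19 (SE 0.21) and a 95% interval of −0.70 to 0.32. The value leaned on single libraries. It was −0.38 (unadjusted p 0.039) when control replicate 3 was left out, −0.35 when overexpression replicate 1 was, −0.11 and −0.12 for overexpression replicates 2 and 3, −0.08 for control replicate 1 and −0.07 for control replicate 2. It had an adjusted p of at least 0.778 in each of 17 other settings of the processing. The 3 libraries with the least Synpo2 (overexpression replicates 2 and 3 and control replicate 3) were the 3 with the highest cortical marker sums, 1583, 2448 and 1881 CPM. Among these 3, however, overexpression replicate 3 had both the highest cortical sum and the most Synpo2. The part of cortical tissue in this spread was not tested.

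Sec24d had 13.0, 13.1 and 10.7 CPM in overexpression, against 14.6, 11.7 and 12.8 CPM in control. Its lowest library was overexpression replicate 3 and its highest control replicate 1, with the rest between. The means were 12.3 ± 1.33 CPM in overexpression and 13.1 ± 1.47 CPM in control (SD, n = 3 each), and the log2 fold change was −0.09 (SE 0.13) with a 95% interval of −0.38 to 0.20. Leaving out control replicate 1 put it at 0.0051, on the other side of 0, leaving out overexpression replicate 3 at −0.0048, and leaving out control replicate 2 at −0.16. Without overexpression replicates 1 and 2, the libraries highest in choroid plexus markers, it was −0.29. That setting leaves overexpression replicate 3, the library with the least Sec24d, as the only overexpression library.

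Mettl14, the farthest of the 6 neighbours, had 24.6, 23.2 and 23.0 CPM in overexpression, against 26.7, 27.5 and 22.2 CPM in control. Control replicates 1 and 2 stood above all 3 overexpression libraries and control replicate 3 below them. The means were 23.6 ± 0.893 CPM in overexpression and 25.4 ± 2.81 CPM in control (SD, n = 3 each), with a log2 fold change of −0.11 (SE 0.10) and a 95% interval of −0.34 to 0.12. Without control replicate 3 it was −0.19, the lowest of its leave-one-out values, and without control replicate 2 it was −0.05.

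Mad2l1, on chromosome 6, had 7.62, 8.35 and 7.28 CPM in overexpression, against 8.30, 7.70 and 8.46 CPM in control. Its groups overlapped as those of the neighbours did. The means were 7.75 ± 0.549 CPM in overexpression and 8.15 ± 0.400 CPM in control (SD, n = 3 each), with a log2 fold change of −0.07 (SE 0.12) and a 95% interval of −0.34 to 0.20. Markers of dividing cells summed to 16.5, 14.1 and 16.6 CPM in overexpression and to 21.2, 20.8 and 12.7 CPM in control, and among them Mki67 had 5.24, 4.12 and 4.37 CPM in overexpression and 7.06, 5.55 and 3.44 CPM in control. Their part in the values of Mad2l1 was not tested.

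For these 5 genes the exact two-sided permutation test of log2 CPM gave p between 0.2 (Usp53) and 0.8 (Synpo2), where 0.1 is the lowest value possible with 3 samples on each side. Within the overexpression group, Pde5a was highest in replicate 1 and lowest in replicate 3. Mettl14 had the same order, Synpo2 was highest in replicate 1 but lowest in replicate 2, Sec24d and Mad2l1 were highest in replicate 2, and Usp53 was highest in replicate 3.

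Fabp2 and Myoz2 were under the filter on low counts and have no fold change. Fabp2, the closest listed gene to Pde5a, had 0 counts in each of the 3 overexpression libraries, and 0, 0 and 4 counts in control replicates 1 to 3. A count of 0 over the overexpression group allows a level of up to 0.0275 CPM (3 counts in the summed libraries, counting error only). Myoz2 had 5, 0 and 2 counts in overexpression replicates 1 to 3, against 0, 6 and 2 counts in control replicates 1 to 3, a total of 7 in overexpression and 8 in control. Both genes are known from other tissues, Fabp2 from intestinal epithelium and Myoz2 from heart and slow skeletal muscle. Neither total was higher in overexpression than in control, and small differences in either gene were not detectable at this depth. In the same libraries Pde5a had 75475 counts in overexpression and 572 in control.

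The non-coding genes between the start of Pde5a and Mettl14 held few counts. In that interval, 11 non-coding genes and pseudogenes had 36 counts in overexpression and 14 in control in all. No single one had more than 8 counts in any library, and 0 of the 11 could be tested. Both of those inside the Pde5a gene, the processed transcript 4930447N08Rik and the pseudogene Gm34139 on the opposite strand, had 22 counts together in overexpression and 2 in control. The 22 counts equal 0.0291% of the Pde5a counts of the same libraries. The sources used here do not say whether counting used the strand, so reads of the opposite strand of Pde5a cannot be told apart from reads of these genes. Just past the end of Pde5a, at 2.54 kb, the pseudogene Gm9364 had 3 counts in overexpression and 1 in control. At 5.36 kb, 4933405D12Rik had 0 counts in overexpression and 7 in control, all in replicate 1.

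Levels of different genes are comparable only per length, and were divided by the total exon length of each gene to give RPKM, that is CPM per 1000 bases. In overexpression the order was Pde5a (69.5 ± 8.69 RPKM), Mettl14 (3.18 ± 0.120), Sec24d (1.94 ± 0.211), Usp53 (1.93 ± 0.0400), Synpo2 (1.71 ± 0.310) and Mad2l1 (0.924 ± 0.0655), with Myoz2 at 0.0175 and Fabp2 at 0 (SD, n = 3). In control it was Mettl14 (3.43 ± 0.379 RPKM), Sec24d (2.06 ± 0.232), Usp53 (2.03 ± 0.0772), Synpo2 (1.95 ± 0.491), Mad2l1 (0.971 ± 0.0477) and Pde5a (0.473 ± 0.128), with Fabp2 at 0.0342 and Myoz2 at 0.0190 (SD, n = 3). Pde5a was thus above all 5 tested genes in overexpression and below all 5 in control. In both groups the ranges of Sec24d, Usp53 and Synpo2 overlapped from one to the next, as did those of Fabp2 and Myoz2, and the other steps in the order lay beyond the ranges. Divided by the longest transcript instead, Usp53 came before Mettl14, at 3.93 against 3.28 RPKM in overexpression and 4.13 against 3.54 RPKM in control, and the places of Pde5a and Mad2l1 were the same.

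Widening the view to every protein-coding gene within 1 Mb on either side of Pde5a gave 18 genes, the 6 neighbours included, of which 15 could be tested. By edgeR's quasi-likelihood test 0 of 15 passed the adjusted threshold, against 0.00505% of all genes tested (Pde5a alone). An unadjusted p under 0.05 was found for 0 of 15, against 3.89% of all genes. Of the 15 log2 fold changes 10 were negative, against 49.4% of all genes. Their median was −0.08, beside 0.0016 for all genes. DESeq2 and limma-voom called 0 of 15 as well, against 0.419% and 0.0252% of all genes. The gene 1810037I17Rik, between Fabp2 and Usp53 at 64.8 kb and not in the list, had 42.5, 45.2 and 44.2 CPM in overexpression against 47.3, 42.6 and 44.4 CPM in control, a log2 fold change of −0.03 (SE 0.07). On the other side of Pde5a, at −109 kb (negative distances lie before its start), Fnbp1l, a regulator of actin and membrane curvature, had 285, 234 and 209 CPM in overexpression against 271, 283 and 223 CPM in control, a log2 fold change of −0.09 (SE 0.14). Bcar3, an adaptor protein at −199 kb, gave 0.13 (SE 0.14). Farther out on that side, Dnttip2, Gclm, Arhgap29, Abcd3 and F3 had log2 fold changes between −0.12 and 0.11. The groups did not overlap for 2 of the 15, F3 and Abca4, where 8.93% of all genes tested had groups that did not overlap. F3, the tissue factor of coagulation, had 33.7, 33.7 and 32.9 CPM in overexpression against 35.9, 35.3 and 36.9 CPM in control, with a log2 fold change of −0.11 (SE 0.06). With windows of 2 Mb and 5 Mb, 0 of 20 and 0 of 33 tested genes passed, against the same 0.00505%. The medians were −0.02 and −0.04.

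**Figure D2:**
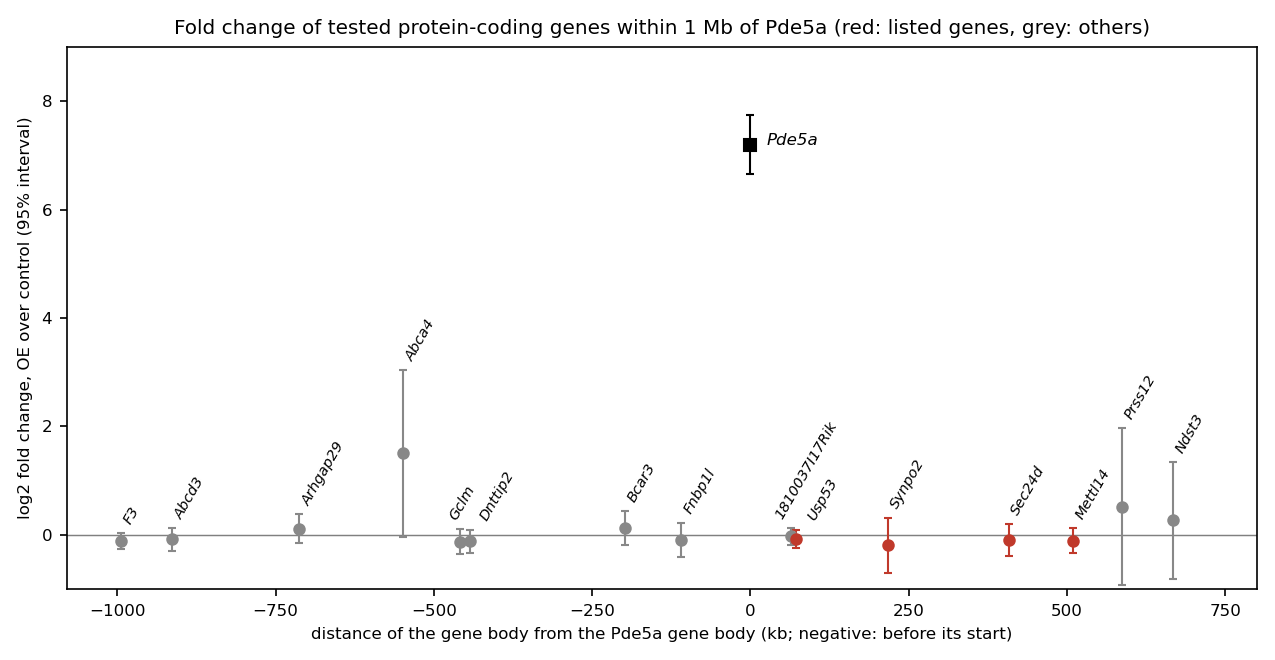
Log2 fold change, overexpression over control, of Pde5a (black) and the tested protein-coding genes within 1 Mb of it against the distance in kb between gene bodies (red, listed genes; grey, others; bars, 95% interval). The listed genes lie between −0.19 and −0.07 at distances of 72.1 to 509 kb, while Pde5a lies at 7.20; Abca4, Prss12 and Ndst3 have the widest intervals.

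Abca4, Prss12 and Ndst3, none of them in the list, had wide intervals. Abca4, a transporter of retinoids, had 4.53, 15.8 and 3.33 CPM in overexpression against 3.05, 2.09 and 3.16 CPM in control. Its fitted fold was 2.84 with a 95% interval of 0.976 to 8.26, which includes 1, and its unadjusted p in edgeR's test was 0.054. The DESeq2 Wald test gave an unadjusted p of 0.0321 and limma-voom 0.131. Its 2 highest libraries, overexpression replicates 2 and 1, were the 2 with the highest choroid plexus marker sums, 3428 and 916 CPM, while the other 4 libraries did not follow the order of that sum. Past Mettl14, Prss12, a neuronal serine protease, had 5.95, 11.1 and 17.4 CPM in overexpression against 7.41, 3.48 and 13.1 CPM in control. Ndst3, a heparan sulfate sulfotransferase, had 7.59, 13.9 and 19.6 CPM in overexpression against 10.3, 7.21 and 16.6 CPM in control. Both had the same order of the 6 libraries as the cortical marker sum, with overexpression replicate 3 and control replicate 3 highest. The part of choroid plexus and cortical tissue in these values was not tested.

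**Figure D3:**
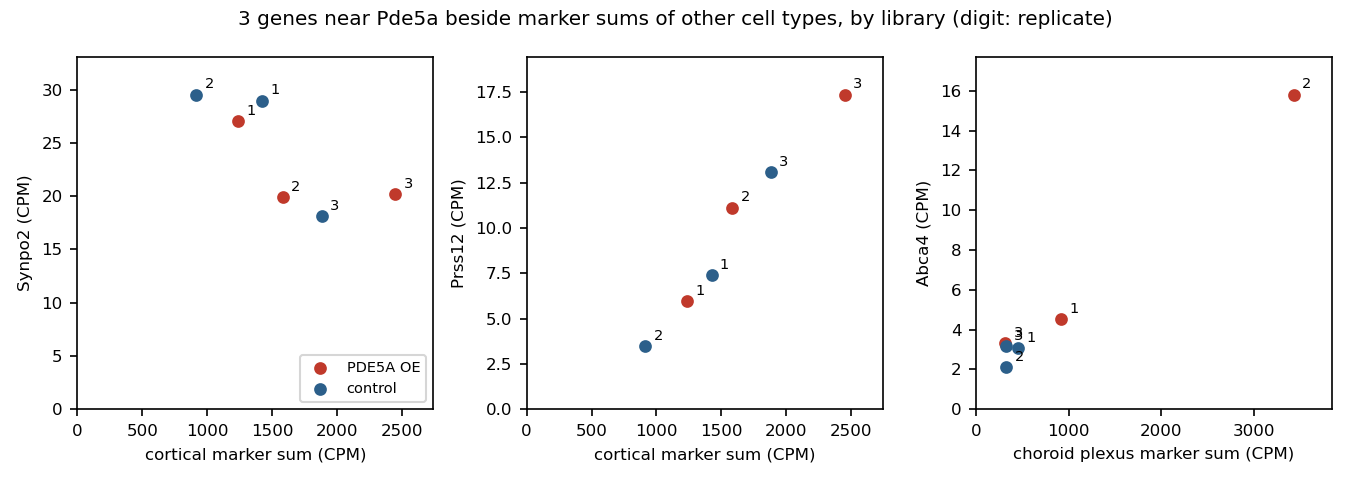
CPM of Synpo2, Prss12 and Abca4 in each library (red, overexpression; blue, control; digits, replicate) against the summed CPM of cortical or choroid plexus markers in the same library. Synpo2 is at 18.1 to 20.2 CPM in the 3 libraries with cortical sums of 1583 CPM or more and at 27.1 to 29.5 CPM in the others; Prss12 is highest where that sum is highest, and Abca4 is highest at the choroid plexus sum of 3428 CPM.

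The genes that work with the listed ones were examined in 6 lists. No list had a member past the adjusted threshold in edgeR's quasi-likelihood test, DESeq2 or limma-voom, which called 0.00505%, 0.419% and 0.0252% of all genes. An unadjusted p under 0.05 in edgeR's test was found for 3.89% of all genes. Beside Mettl14, the 15 other m6A writers, erasers and readers were all tested, with 5 positive and 10 negative log2 fold changes, a median of −0.02 and 0 unadjusted p under 0.05. Mettl3, the catalytic partner of Mettl14, gave −0.02 (SE 0.13) on the log2 scale. Fto, an m6A demethylase, had the smallest p of this list. It had 130.2, 134 and 138 CPM in overexpression against 147, 147 and 142 CPM in control. Its log2 fold change was −0.12 (SE 0.06), and its groups did not overlap, as for 8.93% of all genes tested. Zc3h13, a subunit of the writer complex, had 0.08 (SE 0.07).

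Of the 14 other COPII genes, all tested, 9 had positive and 5 negative log2 fold changes, with a median of 0.01 and 0 unadjusted p under 0.05. The paralogues of Sec24d had log2 fold changes of 0.03 for Sec24a, −0.0023 for Sec24b and 0.0065 for Sec24c. The smallest p in this list belonged to Sec16b (−0.56, SE 0.44), at under 1 CPM in each library, and Sec13 (0.08, SE 0.07). For Mad2l1, the 12 other spindle checkpoint genes had 8 positive and 4 negative values, a median of 0.05 and 0 unadjusted p under 0.05. Ttk, a checkpoint kinase, had −0.41 (SE 0.34) at under 1 CPM in each library, and Cdc20, the target that MAD2 inhibits, had 0.32 (SE 0.36).

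For Usp53, 11 of 12 tight junction genes could be tested, with 6 positive and 5 negative values, a median of 0.02 and 0 unadjusted p under 0.05. Its closest relative Usp54 had −0.08 (SE 0.11) and Marveld2, or tricellulin, had 0.62 (SE 0.39) at under 1 CPM in each library. For Myoz2 and Synpo2, 9 of 12 relatives and Z-disc genes could be tested, with 7 positive and 2 negative values, a median of 0.07 and 0 unadjusted p under 0.05. Flnc, the muscle filamin, had 0.52 (SE 0.31) and Tcap, or telethonin, had 0.84 (SE 0.76). Synpo, the brain relative of Synpo2, had 0.07 (SE 0.08).

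Where Fabp2 was at or near 0 counts, 7 of 12 other lipid-binding relatives could be tested and 5 had 0 counts in every library. Of the 7, 4 had positive and 3 negative values, with a median of 0.06. By edgeR's test, Crabp2, a retinoic acid-binding protein, was the 1 member with an unadjusted p under 0.05, against 3.89% of all genes. That p was 0.0497, while the DESeq2 Wald test gave 0.0887 and limma-voom 0.0573. Crabp2 had 1.52, 1.38 and 1.39 CPM in overexpression against 1.81, 2.39 and 1.83 CPM in control. Its log2 fold change was −0.49 (SE 0.21), and its groups did not overlap, as for 8.93% of all genes tested. Fabp4, the adipocyte form, had 0.60 (SE 0.37) at under 1 CPM in each library, and its groups did not overlap either. Over the 6 lists, then, medians lay between −0.02 and 0.07, beside 0.0016 for all genes tested.

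**Figure D4:**
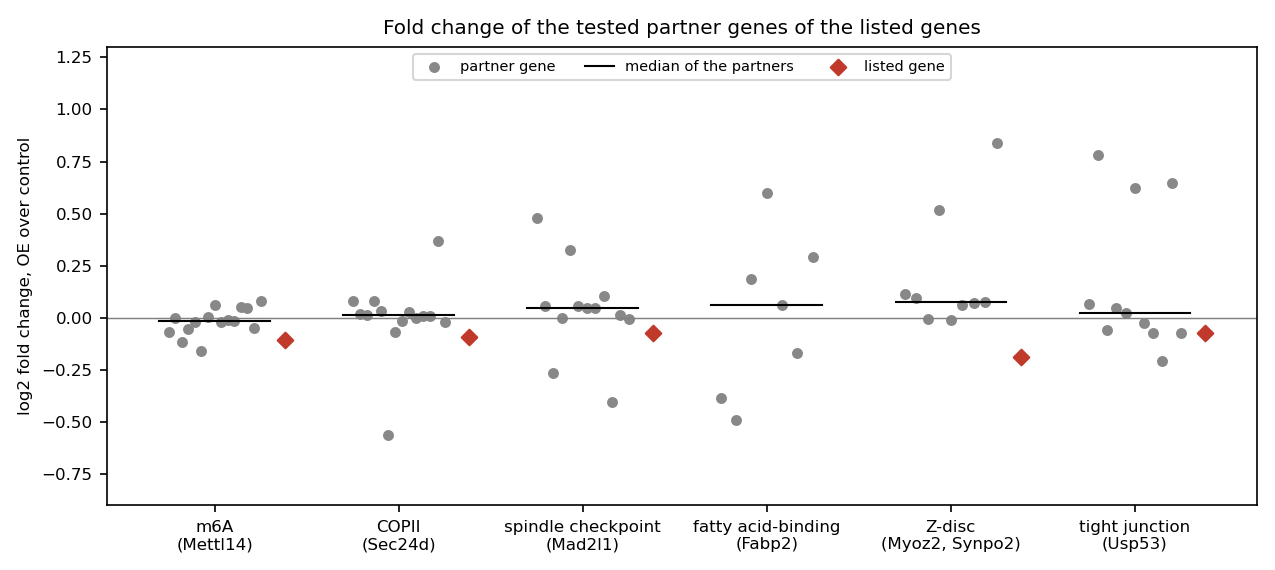
Log2 fold change, overexpression over control, of the tested partner genes of the listed genes (grey points, genes; black line, median of the list; red diamonds, the listed genes that could be tested). The list medians lie between −0.02 and 0.07 and the listed genes between −0.19 and −0.07, and none of the points passed the adjusted threshold.

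The genes whose profile over the 6 libraries came closest to each tested gene were sought among 16040 genes with a mean of at least 1 CPM, by the root mean square difference of mean-centred log2 CPM. The closest to Usp53 were Clint1 and Pak3, at 0.0131 and 0.0167, and the closest to Mad2l1 were Ctnnb1 and Ddt, at 0.0096 and 0.0223. The closest to Mettl14 were Agap1 and Rit2, at 0.0192 and 0.0206, and to Sec24d Saxo2 and Adh5, at 0.0380 and 0.0386. Synpo2 had no profile as close, with Nat1 at 0.0561 and Dnah10 at 0.0677. Of these 10 genes, Adh5 lies on chromosome 3. The distance to Pde5a was 3.65 to 3.72 for each of the 5. Among themselves the tested genes differed by 0.0812 (Usp53 and Mad2l1) to 0.312 (Synpo2 and Mad2l1), so within the list the profile closest to that of Usp53 was that of the gene on chromosome 6. For Pde5a the closest profiles were the immunoglobulin segments Igkv6-15 and Ighv1-9, at 0.926 and 1.19. Igkv6-15 averaged 6.40 CPM in overexpression and 0 in control, and Ighv1-9 3.38 and 0.0577 CPM. At such control levels the log2 values rest largely on the prior count of 2. Reads of such segments can be split among near-identical copies.

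Across the 17 other settings of the processing, none of the 5 tested genes passed the threshold, and adjusted p ranged from 0.716 upward. Single libraries moved the values more than the choice of size factors, filter or test did for each of the 5 genes.

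**Figure D5:**
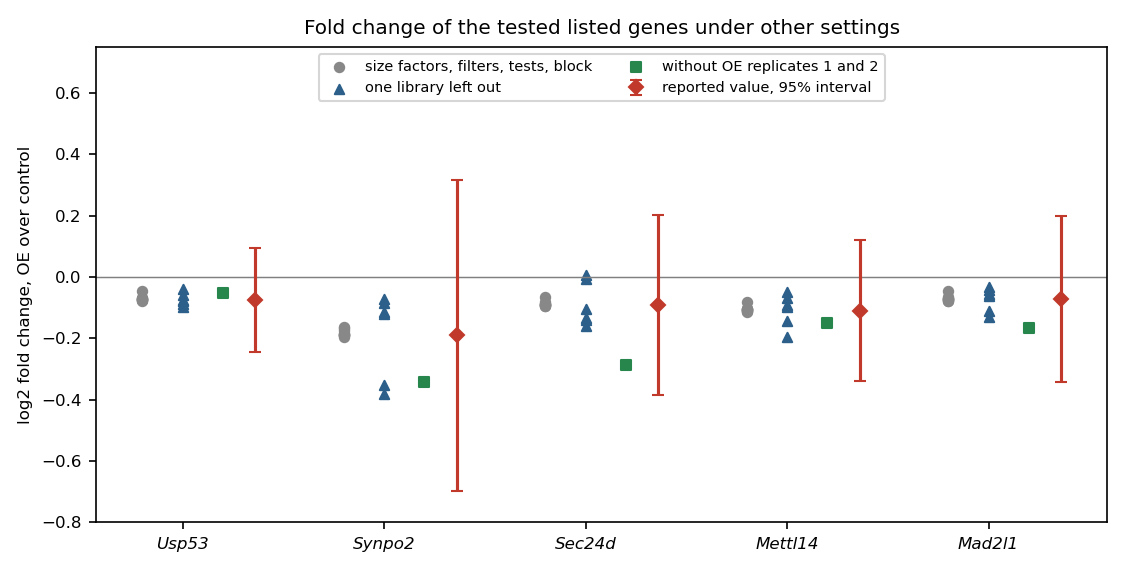
Log2 fold change, overexpression over control, of the 5 tested listed genes as reported (red diamonds, 95% interval), under other size factors, filters, tests and the replicate block (grey), with 1 library left out (blue triangles), and without overexpression replicates 1 and 2 (green squares). Values stay between −0.38 and 0.0051, and the one above 0 is Sec24d without control replicate 1.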

How the data were processed

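The authors deposited 1 file of raw counts for each sample, with whole numbers for Ensembl genes. The submitters' processing notes name STAR 2.5.3a, DESeq 1.16.1, FastQC 0.11.5 and Cuffnorm, and mm10 as the build, without their roles, and per the labels' protocols the libraries were strand-specific. What counted the reads, on which strand and against which annotation is not given in the sources used here, so counts of overlapping genes are uncertain. Of the identifiers, 443 hold exactly 1 count in all 6 libraries.

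Symbols and positions came from GENCODE M21 (mm10), which matched 55154 of 55335 identifiers. Samples were grouped by title. Replicates differed by more than sampling noise (chi-square per degree of freedom 19.1 to 49.6). One fit of all 6 libraries used edgeR 4.0.16 in R 4.3.3 (filterByExpr, TMM, robust quasi-likelihood, Benjamini-Hochberg over 19809 genes, two-sided, adjusted p threshold 0.05); SE is the absolute log2 fold change over the square root of F, and intervals use the fit's degrees of freedom. Log2 CPM had a prior count of 2. DESeq2 1.42.0, limma-voom (limma 3.58.1), other size factors and filters, a replicate block, a threshold of 0.1 and left-out libraries were alternatives. Each test was tried on simulated counts with 200 changed genes. Floors are 3 counts, for counting error only. Genes are named by rule: Pde5a, the listed genes, genes within 1 Mb, the 2 smallest p per partner list, the 2 closest profiles per gene, and marker examples; Mettl3, Sec24a to Sec24c, Usp54 and Synpo were named beside them after their values were seen. Of the genes the rule names, 1 is not reported here. The members and lists were chosen with earlier results of these data known.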

Additional observations from a re-analysis of the deposited data

How the results depend on the processing

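Over 17 other settings the log2 fold changes of Usp53, Synpo2, Mettl14 and Mad2l1 kept their negative sign, and Sec24d did in each but 1, at 0.0051 without control replicate 1. Among these settings, the threshold of 0.1 reused the same fit, so its fold changes could not differ. None of the 5 was called in any setting, and Pde5a was called in all of them. Pde5a ranged from 7.07 to 7.44 with 1 library left out and was 6.99 without overexpression replicates 1 and 2. With 1 library left out, Usp53 ranged from −0.10 to −0.04, Synpo2 from −0.38 to −0.07, Sec24d from −0.16 to 0.0051, Mettl14 from −0.19 to −0.05 and Mad2l1 from −0.13 to −0.03; changes of size factors, filter, test or block kept them within −0.08 to −0.05, −0.19 to −0.16, −0.10 to −0.06, −0.11 to −0.08 and −0.08 to −0.05. Genes near Pde5a and partner genes past the threshold stayed at 0 in these settings. Over all genes the count of 1 became 3 at an adjusted p of 0.1, 83 with the DESeq2 Wald test, 5 with limma-voom, 3 without a filter, 3 with the replicate block, 5 without overexpression replicates 1 and 2 (where the lone overexpression library is assumed to vary like the controls), and 1 to 2 with 1 library left out, being 2 without control replicate 2 and 2 without control replicate 3; the cause was not tested. Same-numbered samples were not paired by the labels, and their deviations correlated at −0.0202, 0.0272 and 0.292 for numbers 1 to 3, with overexpression replicate 1 closest to control replicate 2 (0.350). With 3 samples a group, differences within the 95% interval of each gene are not excluded, and that interval is widest for Synpo2 among the 5. For Fabp2 and Myoz2, depth limited the view of small differences.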
